A study of Mus musculus with 24 samples.

Results

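The levels of 9 genes that mark the epithelium of the choroid plexus (*Ttr*, *Kl*, *Folr1*, *Clic6*, *Aqp1*, *Enpp2*, *Otx2*, *Slc4a5* and *F5*) were followed in mRNA libraries of mouse nucleus accumbens (NAc), out of 38293 genes counted there. They were selected on the measured read counts of these same libraries, with the results already known, and were found in the count table by the Ensembl identifiers of their symbols. Their mRNA values are therefore given as a description without a test. Of the 9 genes, 8 passed the filter on low counts (over 5 reads in 80% or more of a group's libraries) that left 18593 genes for testing, and *Slc4a5*, with 62 reads over all libraries, did not. *Folr1* passed through the unstressed males and the stressed females only.

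RNA came from male and female C57BL/6J mice, aged 9 weeks by the labels, that carried no transgene. They were exposed to Subchronic Variable Stress (SCVS; foot shock, tail suspension and restraint in alternation) or left unstressed. All females were in estrus or proestrus. The groups were unstressed males (NSM), stressed males (SM), unstressed females (NSF) and stressed females (SF), with 3 mRNA libraries each and 3 small RNA libraries from the same pools. A pool held 10 NAc punches from 5 mice, so that a high value in 1 mouse of a pool and a moderate value in all of them cannot be told apart. The mRNA libraries held 41076780 to 60867747 counted reads and the small RNA libraries 5086554 to 13522287. Levels are given in CPM (read counts scaled to a common library size with TMM factors), and a pool is named by its group and number, as in NSM1.

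The choroid plexus is a folded epithelium inside the brain ventricles that makes the cerebrospinal fluid. Its cells move sodium, bicarbonate, chloride and water across their surface, take folate and other nutrients from the blood into the fluid, and secrete carrier proteins. *Ttr*, which encodes the thyroxine and retinol carrier transthyretin, is among the most abundant messages of this epithelium, whereas the NAc itself is made of neurons and glia.

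miRs are known for choroid plexus and other lining epithelia as well, and these were counted in separate libraries of the small RNA fraction, a readout on which the 9 genes were not chosen. The mature sequences are shown because the listed miRs fall into families that share a seed, the bases 2 to 8 (in capitals) by which a miR recognizes its targets. They were taken from RefSeq on GRCm38.p6, 1 arm for each hairpin, and the rows of the count table carry hairpin names, which do not separate the arms. The first family, known from choroid plexus and retinal pigment epithelium, differs at 1 of 22 positions, A17U, counted from the 5′ end of miR-204-5p.
miR-204-5p: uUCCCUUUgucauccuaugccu
miR-211-5p: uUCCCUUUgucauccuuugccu
The second family, to which mir-34c also belongs, is known from multiciliated cells such as those of the ependyma.
miR-449a-5p: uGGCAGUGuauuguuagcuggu
miR-449c-5p: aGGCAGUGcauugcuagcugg
miR-34b-5p: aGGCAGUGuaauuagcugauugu
The third group, known from epithelia in general, holds seeds that differ at 1 base between its first and second set.
miR-200b-3p: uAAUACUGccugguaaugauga
miR-200c-3p: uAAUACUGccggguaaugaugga
miR-429-3p: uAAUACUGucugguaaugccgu
miR-200a-3p: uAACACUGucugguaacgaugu
miR-141-3p: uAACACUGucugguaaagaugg

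Across all libraries the 9 genes lay far apart in level, and *Folr1*, *Aqp1* and *Slc4a5* had 1 to 35 reads a library. Per kilobase of exon, *Enpp2* had the highest mean level at 43.9 CPM (38.2 to 53.3 over the 12 libraries), above every library's value of the next gene. *Clic6* followed with 6.92 CPM per kilobase (5.80 to 7.99) and *Kl* with 1.97 (1.65 to 2.46). *Ttr* averaged 5.32 CPM per kilobase, but its median was 0.580 and its range, 0.3996 to 54.2, spanned those of *Enpp2*, *Clic6* and *Kl*. Below them came *Otx2* at 0.466 (0.333 to 0.639), whose range touched neither that of *Kl* nor that of *F5* but overlapped that of *Ttr*. *F5* at 0.184, *Aqp1* at 0.107 and *Folr1* at 0.0897 CPM per kilobase each overlapped the next gene in this order, and *Slc4a5* at 0.0176 was the last. As a group the genes thus did not share a level: *Enpp2*, *Clic6* and *Kl* had at least 50 reads in every library, while transthyretin and the folate, water and bicarbonate carriers were at 0.0212 to 2.62 CPM in the 11 libraries other than NSM1. *Enpp2* is also a gene of oligodendrocytes, and it is not particular to this epithelium.

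NSM1 stood apart from the other libraries in the levels of the 9 genes. It held the highest level of 8 of the 9 genes, all but *Clic6*, while 7.31% of all tested genes were highest there. *Ttr* was the only tested gene with at least 20 reads in NSM1 that exceeded the next library by more than 2-fold, with a ratio of 25.3. By the same measure SM1 had 8 such genes (highest ratio 9.90) and NSF3 had 4. NSM3 and SM2 were the highest library for 14.4% and 14.5% of all tested genes, so that NSM1 was not the most deviant library in general. Of genes known from other cells of the region, none of 12 ependymal, 14 meningeal fibroblast, 13 oligodendrocyte and 9 striatal projection neuron genes was highest in NSM1, and 1 of 10 endothelial genes was. In lists this short, such counts are near the share of 7.31% and do not set these cells apart. Of 32 other tested choroid plexus genes, described below, 7 were highest in NSM1. The summed level of the ependymal genes was 48.9 CPM in NSM1 and lay between 35.7 and 64.8 CPM over all libraries, and no gene of that list was at 0 in any library. The log2 fold changes of the 9 genes in males are therefore also given without NSM1.

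**Figure D1:**
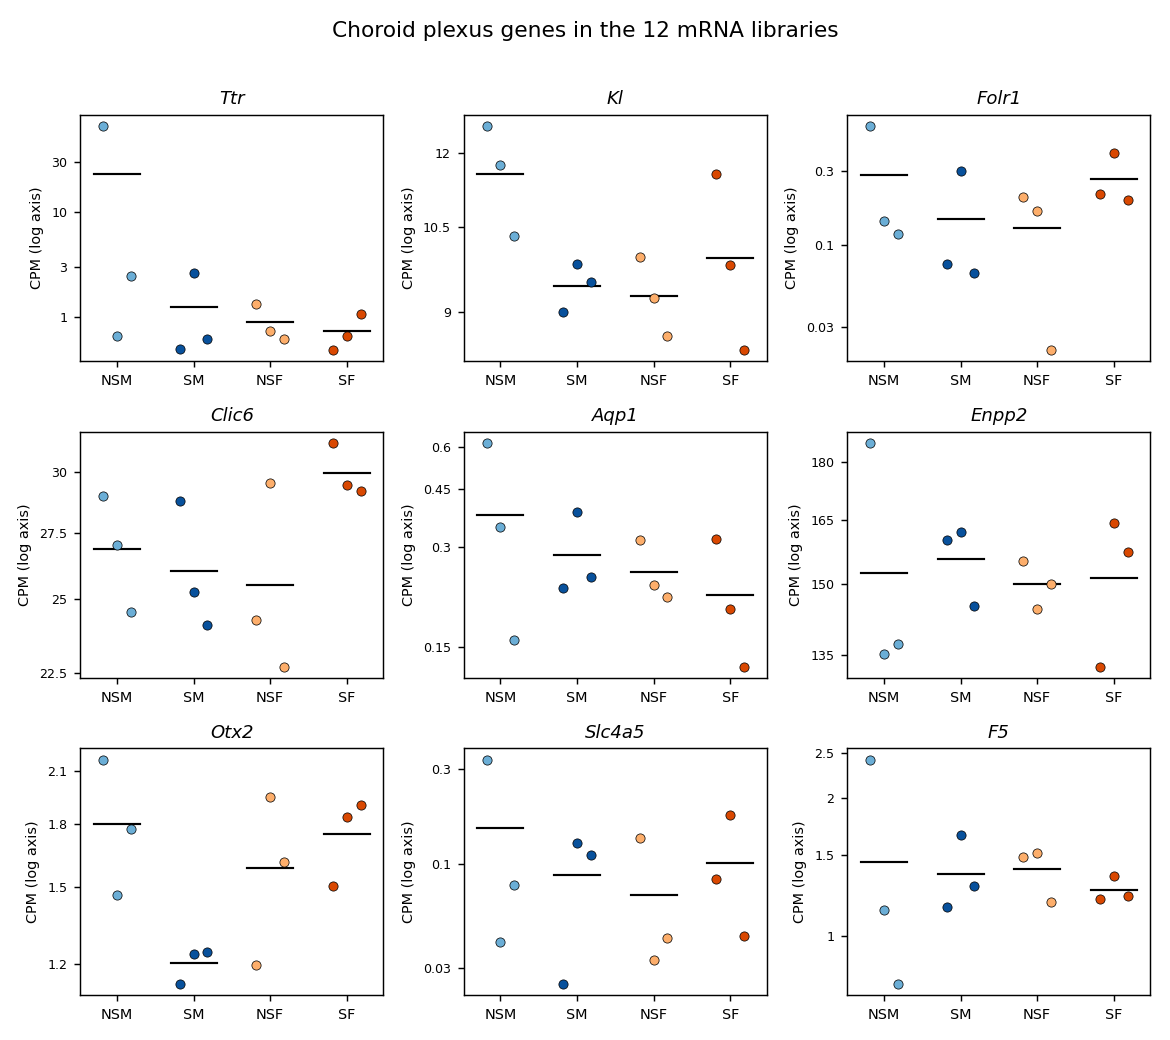
Levels of the 9 choroid plexus genes in CPM on log axes, each panel with its own range; points are the 3 libraries of each group in order of their number, and lines are group means. The first NSM point is the highest of the panel for every gene but *Clic6*, and for *Ttr* it reaches 66.1 CPM against at most 2.62 elsewhere.

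Among the secreted proteins, *Ttr* set the pattern. *Ttr* (ENSMUSG00000061808) was at 66.1, 0.671 and 2.49 CPM in NSM1, NSM2 and NSM3 and at 0.503, 2.62 and 0.620 CPM in the stressed males. In females it was at 1.33, 0.742 and 0.616 CPM without stress and at 0.487, 0.665 and 1.07 CPM after SCVS. A single library, with 3743 of the 4312 *Ttr* reads, thus separated from 11 libraries that overlapped, among which NSM3 and SM2 were the highest. The mean of 23.1 ± 37.2 CPM (SD, n = 3) in unstressed males had an SD above itself, and SM against NSM gave -2.43 on the log2 scale (standard error 1.76). Without NSM1 this log2 fold change was -0.41. In females it was -0.25 (standard error 2.30). The spread of *Ttr* within groups was larger than that of 99.99% of the tested genes.

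*F5* (ENSMUSG00000026579; NCBIM37 chr1:166081969-166150408, plus strand), which encodes coagulation factor V, was at 2.42 CPM in NSM1 and between 0.789 and 1.66 CPM in the other 11 libraries, and NSM3 was the lowest of all. Its log2 fold change in males turned from 0.04 (standard error 0.31) to 0.53 without NSM1, and was -0.15 (standard error 0.31) in females. In the annotation 262 exonic bases of *F5* are shared with overlapping genes of both strands, whose reads cannot be told apart in these unstranded counts. *Enpp2* (ENSMUSG00000022425; chr15:54670453-54751701, minus strand), which encodes autotaxin, the enzyme that makes lysophosphatidic acid, was at 185, 135 and 137 CPM in unstressed males and at 160.2, 162 and 145 CPM in stressed males. In females it lay between 133 and 164 CPM, and the groups overlapped in each comparison. NSM1 exceeded the median of the other libraries by 35.1 CPM, a ratio of 1.23. The log2 fold changes of *Enpp2* were 0.04 in males and 0.01 in females (standard errors of 0.11), and 0.20 in males without NSM1.

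Of the carriers and channels *Folr1*, *Aqp1* and *Slc4a5* were low and highest in NSM1, and *Clic6* was neither. *Folr1* (ENSMUSG00000001827; chr7:109006845-109019302, minus strand), the folate receptor alpha that brings folate into the fluid, was at 0.582, 0.142 and 0.118 CPM in unstressed males and at 0.0755, 0.298 and 0.0665 CPM in stressed males. In females it was at 0.203, 0.165 and 0.0212 CPM without stress and at 0.212, 0.391 and 0.197 CPM after SCVS. These values rest on 1 to 33 reads a library, and SF2 was second to NSM1. The log2 fold change was -0.83 in males and 1.31 in females (standard errors of 0.75), and that in males was -0.09 without NSM1.

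*Aqp1* (ENSMUSG00000004655; chr6:55286426-55298549, plus strand), the water channel of the apical membrane, was at 0.618, 0.345 and 0.158 CPM in unstressed males, and at 0.131 to 0.383 CPM in the other groups, all of which overlapped. Its log2 fold change was -0.23 (standard error 0.44) in males, 0.27 in males without NSM1, and -0.27 (standard error 0.48) in females. *Slc4a5* (ENSMUSG00000068323; chr6:83169822-83254939, plus strand), a sodium bicarbonate cotransporter of the same membrane, had 19 reads in NSM1 and 1 to 9 reads in each of the others, so that no fold change was fitted. It was at 0.335 CPM in NSM1 and next highest in SF2 with 0.176 CPM. *Clic6* (ENSMUSG00000022949; chr16:92485981-92541488, plus strand), of the chloride intracellular channel family, was at 29.0, 27.0 and 24.6 CPM in unstressed and at 28.8, 25.2 and 24.1 CPM in stressed males. In unstressed females it was at 24.3, 29.5 and 22.7 CPM, and in stressed females at 31.3, 29.4 and 29.2 CPM. The stressed females were high as a group and overlapped the unstressed females at NSF2. The log2 fold change of *Clic6* was -0.05 (standard error 0.10) in males, 0.02 in males without NSM1, and 0.23 (standard error 0.09) in females. The value in females lay between 0.15 and 0.35 over 21 settings, which include the main fit and reuse the same libraries.

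*Otx2* (ENSMUSG00000021848; chr14:49277354-49287319, minus strand), the homeobox transcription factor that choroid plexus epithelium needs to form and to last, was at 2.17, 1.46 and 1.78 CPM in unstressed males and at 1.13, 1.23 and 1.24 CPM in stressed males. Every stressed male library was below every unstressed one, and the SD of the stressed group was 0.0604 CPM. In unstressed females *Otx2* was at 1.19, 1.95 and 1.61 CPM and in stressed females at 1.504, 1.84 and 1.90 CPM, which overlapped. The log2 fold change was -0.57 (standard error 0.20) in males and 0.13 (standard error 0.19) in females. In males it was -0.41 without NSM1 and between -0.69 and -0.41 over 21 settings. These include the main fit and reuse the same libraries, so that their shared sign is no independent support. Among the promoters of RefSeq (GRCm38.p6), the letters GGATTA, in which the binding motif of the OTX family is contained, or their reverse complement TAATCC were found in the 250 bases before 1 of 4 *Otx2* starts, and before none of the starts of *Kl*, *Aqp1*, *Slc4a5* and *F5*, against 6.25% of all 32851 promoters. The promoters of *Ttr*, *Folr1*, *Clic6* and *Enpp2* were not available and were not searched.

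*Kl* (ENSMUSG00000058488; chr5:151755182-151796384, plus strand), the membrane protein Klotho that serves as a coreceptor of fibroblast growth factor 23, was at 12.6, 11.7 and 10.3 CPM in unstressed males and at 9.01, 9.82 and 9.50 CPM in stressed males. In females it was at 9.94, 9.24 and 8.62 CPM without stress and at 11.5, 9.80 and 8.41 CPM after SCVS. The unstressed males were above both the stressed males and the unstressed females without overlap. The log2 fold change was -0.29 (standard error 0.11) for SM against NSM, -0.32 (standard error 0.10) for NSF against NSM, and 0.09 (standard error 0.11) for SF against NSF. Without NSM1 the first of these was -0.21 and the second -0.26.

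Of the 8 tested genes, *Kl* and *Otx2* thus did not overlap between stressed and unstressed males, where 23% of all tested genes did not overlap. None of the 8 was without overlap between stressed and unstressed females, against 11.3% of all tested genes, and *Kl* alone between unstressed females and males, against 19.5%. The median log2 fold change of the 8 genes was -0.26 in males and 0.05 in females, beside -0.01 and -0.00392 over all tested genes. Without NSM1 the median in males was -0.04 (all tested genes, -0.01), with 4 of 8 genes below 0, so that the lower median rested on this library. These comparisons share the unstressed males or females. Lower levels can come from fewer expressing cells in a pool, of the choroid plexus or of another type, or from less RNA per cell. Bulk libraries cannot tell these apart, and which cells gave the reads was not tested.

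The genes resembled each other less once NSM1 was left out. Over the 28 pairs of the 8 tested genes the median Pearson r of log2 CPM across the 12 libraries was 0.42, with 11 pairs above 0.5. Without NSM1 the median was 0.06 and 4 pairs were above 0.5. *Kl* and *Aqp1* had the highest r with all libraries (0.74) and kept an r of 0.59 without NSM1, whereas *Kl* and *Enpp2* went from -0.02 to -0.65. These values describe 12 pools that share their dissection and are given without a test.

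A member index was formed as the mean over the 9 genes of log2 CPM minus the gene's own mean. It was 1.41 in NSM1 and between -0.56 and 0.34 in the other libraries. Among 17566 other genes averaging 10 reads or more, the 12 most like the index over the 12 libraries had Pearson r between 0.77 and 0.87. They were *Csnk2a2*, *Atg4b*, *1700001P01Rik*, *Mavs*, *Glis3*, *Glyat*, *Faf2*, *Wdr77*, *Dgcr2*, *Gm13086*, *Nkap* and ENSMUSG00000094952, and none of them was in the list of other choroid plexus genes described next. *Csnk2a2*, the catalytic alpha prime subunit of casein kinase 2, had the highest r at 0.87. Without NSM1 the r of the 12 genes lay between 0.14 (*Dgcr2*) and 0.79 (*Glis3*), with 0.66 for *Csnk2a2* and 0.25 for *Atg4b*. With the group means taken out, 2 of the 12 genes, *Csnk2a2* and *Mavs*, remained among the 12 most alike.

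The list of other genes of this epithelium held 39 genes, of which 32 were tested by voom and limma, called where the unadjusted p was below 0.05 and the change reached 1.3-fold. *Kcnj13*, *Slco1a5*, *Wfdc2*, *Mia*, *Cldn2*, *Cldn3* and *Lmx1a* were too low to be tested. Of the 32 genes, 7 were highest in NSM1 and 11 in SF2, beside 7.31% and 7.30% of all tested genes. The ratio of NSM1 to the median of the other libraries had a median of 1.13 over the 32 genes (0.61 to 2.94). *Cldn2*, the claudin of leaky epithelia, had 15 reads in NSM1 and 1 to 6 in each other library. *Tmem72*, a membrane protein of this epithelium, was at 0.424 CPM in NSM1 and at most at 0.297 CPM elsewhere. In contrast *Slc16a8*, a lactate transporter, was lowest in NSM1 with 0.847 CPM against 1.06 to 1.81 CPM. *Cldn2*, *Tmem72* and *Slc16a8* are named with their values seen.

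**Figure D2:**
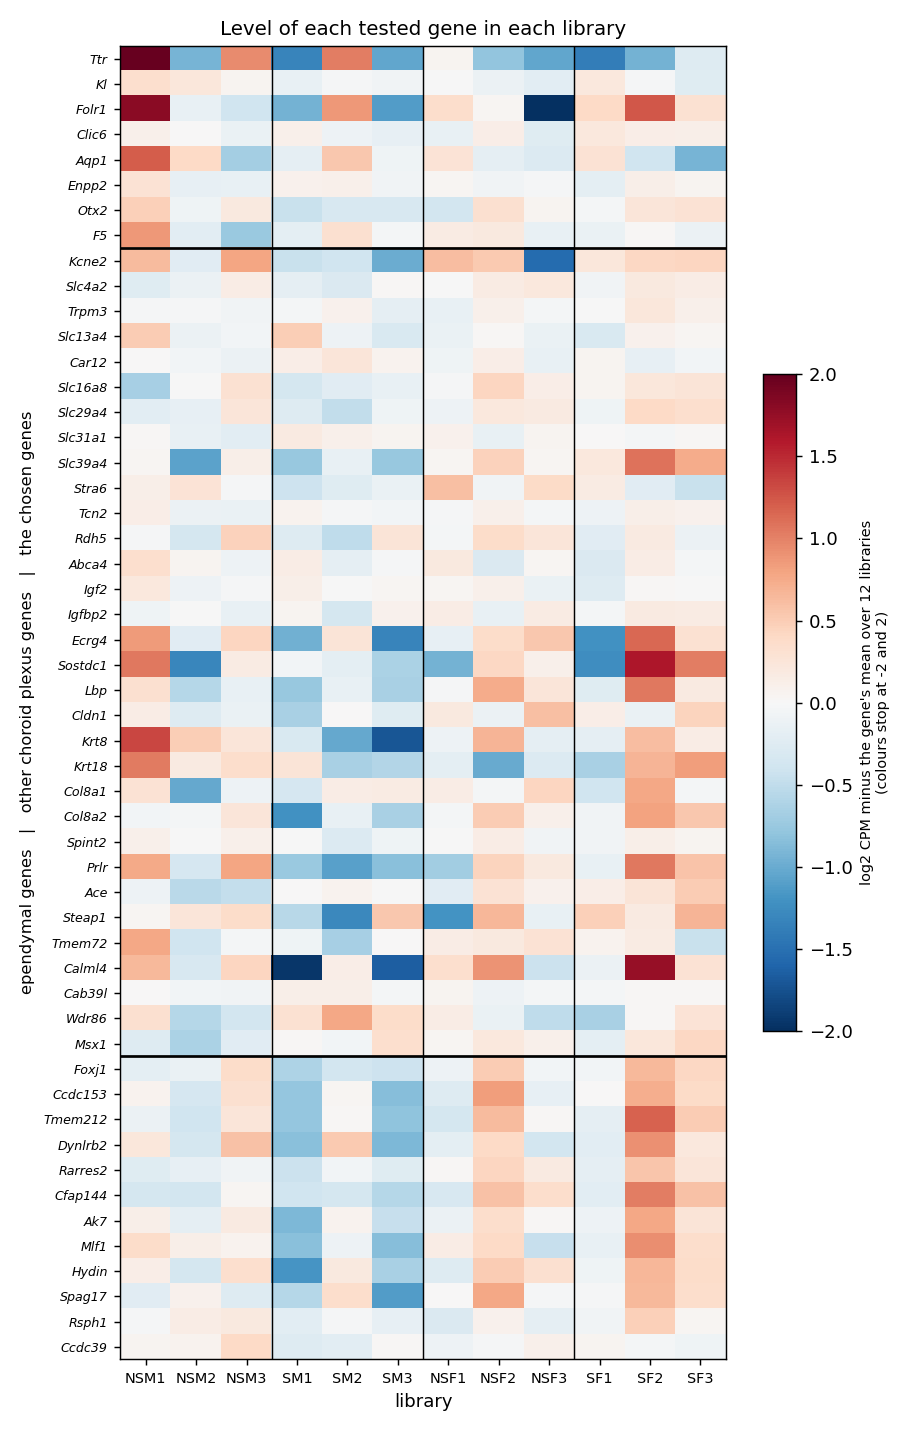
Log2 CPM of each tested gene minus its mean over the 12 libraries, with colors ending at -2 and 2; rows are the 8 tested genes of the set (top), 32 other choroid plexus genes (middle) and 12 ependymal genes (bottom), and columns are libraries. NSM1 is red across most of the top rows, whereas 9 of the 12 ependymal genes and 11 of the 32 other choroid plexus genes are highest in SF2.

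In stressed against unstressed males, 7 of the 32 other choroid plexus genes were called, 4 lower and 3 higher, where 6.44% of all tested genes were called. Their median log2 fold change was -0.20 (all tested genes, -0.01), and 23 of 32 were below 0. Without NSM1 this median was -0.07 and 18 of 32 genes were below 0. The count was 4 without NSM3 or without SM3 and 11 without SF1, and scaling by library size alone left 4 genes, all lower. *Krt8*, a keratin of simple epithelia, was at 0.265, 0.142 and 0.118 CPM in unstressed and at 0.0755, 0.0425 and 0.0222 CPM in stressed males. It fell by 1.72 (log2; standard error 0.46, adjusted p = 0.0616, limma) on 1 to 15 reads a library, and keratins have near-identical pseudogenes, so that its reads are uncertain. *Prlr*, the prolactin receptor, was at 3.21, 1.504 and 3.29 CPM in unstressed males and at 1.13, 0.893 and 1.06 CPM in stressed males. It fell by 1.31 (log2; standard error 0.43, adjusted p = 0.107, limma). Both genes were lower in 3 of 3 stressed libraries than in any unstressed one. Of the 32 genes, 6 were lower and 4 higher without overlap in males, where 23% of all tested genes did not overlap. Both *Krt8* and *Prlr* were called in males by limma without each library in turn, with adjusted p between 0.0593 and 0.204 for *Krt8* and between 0.0531 and 0.311 for *Prlr*. Without NSM1 *Krt8* was at -1.38 and *Prlr* at -1.12.

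*Col8a2*, a short-chain collagen, fell from 1.24 ± 0.143 to 0.773 ± 0.280 CPM (SD over 3 libraries; log2 fold change -0.70, adjusted p = 0.193, limma), and its call was lost without NSM3 (log2 fold change -0.60), SM1 (-0.44) or SM3 (-0.69). *Stra6*, the cell surface receptor of retinol-binding protein, fell from 19.7 ± 2.00 to 15.0 ± 1.53 CPM (adjusted p = 0.214, limma). *Ace*, the angiotensin-converting enzyme, rose from 5.67 ± 0.951 to 7.41 ± 0.228 CPM (log2 fold change 0.39, adjusted p = 0.149, limma), a call lost without NSM2 (0.32), NSM3 (0.34) or SM2 (0.37). *Msx1*, a homeobox gene, rose from 0.738 ± 0.111 to 1.02 ± 0.152 CPM (log2 fold change 0.47, adjusted p = 0.207, limma), a call lost without NSM2 (0.36) or SM3 (0.35). *Wdr86* was the seventh gene called (log2 fold change 0.68, adjusted p = 0.226, limma), and it is named here with its values seen. None of the 7 had an adjusted p under 0.05. By limma 10 of the 32 genes had an unadjusted p under 0.05, as did 3992 of all 18593 tested genes, and edgeR's quasi-likelihood test called 7.

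In stressed against unstressed females 1 of the 32 genes was called, where 1.73% of all tested genes were called. *Stra6* was at 27.3, 17.2 and 23.5 CPM in unstressed and at 20.1, 15.4 and 13.2 CPM in stressed females, and the groups overlapped. It fell by 0.46 (log2; standard error 0.16, adjusted p = 0.948, limma), a call lost without NSF1 (log2 fold change -0.31) or SF3 (-0.33). The median log2 fold change of the list was 0.02 (all tested genes, -0.00392). The count was 0 without NSF1 or SF3 and 5 without SF1.

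**Figure D3:**
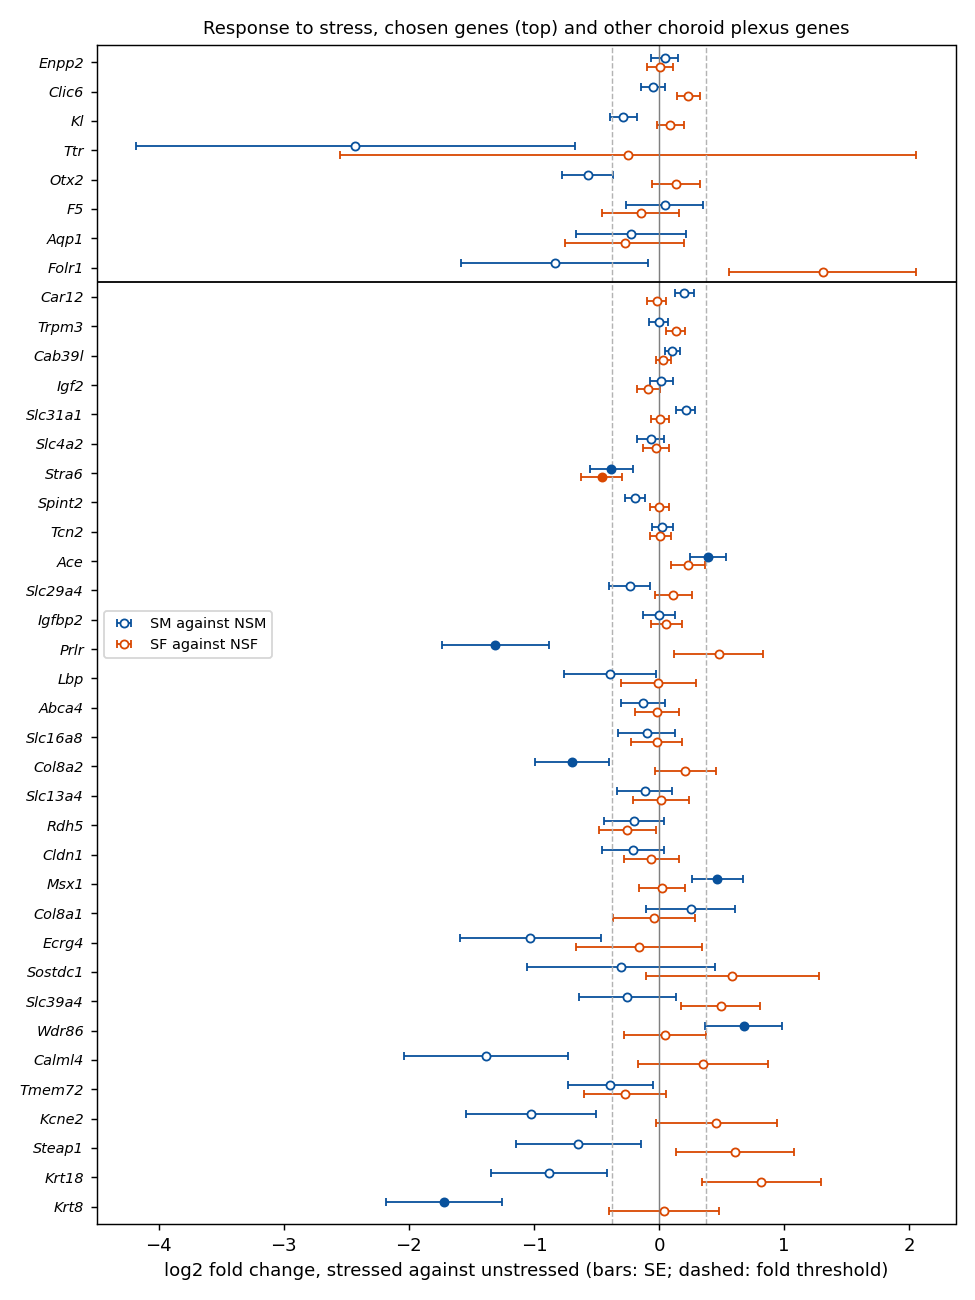
Log2 fold change of stressed against unstressed males (blue) and females (orange) with standard errors, for the 8 tested genes of the set (above the line) and 32 other choroid plexus genes (below); filled points are called, open points are not, and the genes of the set were not tested. The bars of *Ttr* are the widest, and *Prlr* and *Krt8* lie at -1.31 and -1.72 in males and at 0.48 and 0.04 in females.

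The test of the sex-by-stress interaction compared the female with the male response. It called 4 of the 32 genes, all with the higher value in females, where 4.42% of all tested genes were called. *Prlr* had the lowest p, with a difference of 1.79 (log2; standard error 0.56, adjusted p = 0.318, limma). It was at 1.17, 2.59 and 2.19 CPM in unstressed and at 1.72, 3.95 and 2.84 CPM in stressed females. *Krt8* (1.75), its partner keratin *Krt18* (1.69, on 3 to 13 reads a library) and *Col8a2* (0.91) followed, with adjusted p between 0.410 and 0.475 by limma. The count was 2 without SF2 or SF3, 7 without NSM2 and 9 without SF1. *Krt8* lost its call without SM3 (1.41). *Krt18* lost it without NSM1 (1.42), SM2 (1.53), NSF2 (1.41), SF2 (1.49) or SF3 (1.43). *Col8a2* lost it without NSM3 (0.81), SM1 (0.66), SM3 (0.91), NSF1 (0.79), NSF3 (0.85), SF2 (0.71) or SF3 (0.86).

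In unstressed females against unstressed males 3 of the 32 genes were called, where 5.31% of all tested genes were called. *Ace* (log2 fold change 0.43, adjusted p = 0.173, limma) and *Msx1* (0.49, adjusted p = 0.260) were higher in females and *Krt18* (-1.06, adjusted p = 0.295) was lower. *Ace* lost its call without NSM2 (0.35), NSM3 (0.37) or NSF2 (0.30), *Msx1* without NSM2 (0.37) or NSF2 (0.43), and *Krt18* without NSM1 (-0.80) or NSF2 (-0.78). None of the 3 genes was called without NSF2.

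The 2 most abundant genes of each role included *Stra6*, *Col8a2*, *Ace* and *Msx1*, described above. Among ion transporters, *Car12*, a membrane carbonic anhydrase, averaged 82.7 CPM (73.7 to 97.2) and the cation channel *Trpm3*, whose gene hosts mir-204, averaged 49.6 CPM (43.8 to 57.9). The copper transporter *Slc31a1* averaged 19.9 CPM and, among secreted proteins, *Igf2* averaged 23.8 CPM and its binding protein *Igfbp2* 4.89 CPM. *Igf2* was highest in NSM1 with 27.4 CPM. *Spint2*, a protease inhibitor, averaged 17.2 CPM, and *Cab39l*, a partner of the STK kinases, 26.6 CPM. The ion transporters held 5 tested genes and no call in any of the 4 comparisons. Of 6 tested junction, keratin and matrix genes, 2 fell in males (6.44% of all tested genes called), 3 were called in the interaction (4.42%) and 1, *Krt18*, between unstressed sexes (5.31%).

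The ependymal genes mark the ciliated lining of the ventricles. The summed level of the 12 genes was 47.2 to 60.7 CPM in unstressed and 35.7 to 44.8 CPM in stressed males, and 44.6 to 58.5 CPM in unstressed and 48.0 to 64.8 CPM in stressed females. *Ccdc39*, with a mean of 22.7 CPM, weighed most in this sum. With each gene weighted alike (mean log2 deviation) the male groups overlapped, at -0.16 to 0.20 in unstressed and -0.65 to 0.01 in stressed males. All 12 had a log2 fold change below 0 in males, with a median of -0.43 (-0.41 without NSM1), and all 12 a positive interaction, with a median of 0.66. Of them 1 was called in males (*Mlf1*, log2 fold change -0.78), where 6.44% of all tested genes were called, and 3 in the interaction (*Foxj1*, *Mlf1* and *Rsph1*), where 4.42% were. The count in males was 0 without SM1, 2 without NSM2, NSF2, SF1 or SF2, and 5 without SM2. The count in the interaction was 0 without SM1, NSF3 or SF2, 1 without NSM3, SM3 or NSF1, 5 without NSF2 or SF1, and 6 without SM2. *Ccdc39*, the most abundant of the list, was at 18.9 to 29.7 CPM. The part of ependymal RNA in the differences of the choroid plexus genes was not tested. Of the other lists, *Mbp* of oligodendrocytes (1760.5 to 2312 CPM), *Penk* of striatal neurons (1145 to 1716 CPM), *Slc2a1* of endothelium (53.1 to 75.8 CPM) and *Col1a2* of meningeal fibroblasts (6.42 to 12.7 CPM) were the most abundant. In males *Col1a2* fell (log2 fold change -0.48, adjusted p = 0.0365, limma) and *Slc22a6* rose (0.74) among the meningeal fibroblast genes, whose median was 0.16, and *Cldn5* fell (-0.45) among the endothelial genes, whose median was -0.02. No oligodendrocyte or striatal neuron gene was called in any of the 4 comparisons, and all of them had a log2 fold change above 0 in males (medians of 0.18 and 0.14). In males 8 of the 13 oligodendrocyte genes had an unadjusted p under 0.05 but stayed below the fold threshold, among them *Mobp* (0.32, adjusted p = 0.0238, limma) and *Mog* (0.29, adjusted p = 0.0458, limma), named with their values seen. Over all tested genes 3992 of 18593 had an unadjusted p under 0.05 in males by limma.

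Of the 12 listed miRs 11 were tested, and mir-449b had 0 reads in every library. mir-204 was at 525, 436 and 455 CPM in unstressed males and at 330.1, 413 and 450.2 CPM in stressed males. In females it was at 400.2, 422 and 372 CPM without stress and at 455, 480.2 and 440.5 CPM after SCVS. The highest library was NSM1 and the lowest SM1, and every stressed female library was above every unstressed one. mir-211, which shares the seed shown above, was at 84.3, 75.9 and 72.6 CPM in unstressed and at 53.8, 65.8 and 70.2 CPM in stressed males, without overlap. In females it was at 54.2, 64.7 and 65.2 CPM without stress and at 66.0, 78.8 and 70.2 CPM after SCVS, again without overlap. The share of all tested miRs without overlap was not counted, so that these separations have no baseline here. The shares among tested genes of the mRNA libraries, 23% in males and 11.3% in females, are of another assay and do not stand in for it. NSM1 was the highest and SM1 the lowest library for mir-211 too.

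In stressed against unstressed males none of the 11 miRs was called by limma, where 5.2% of all 500 tested miRs were called. mir-204 differed by -0.26 (log2; standard error 0.11, adjusted p = 0.325 by limma) and mir-211 by -0.31 (standard error 0.12, adjusted p = 0.275 by limma), both under the fold threshold. A single miR was called in males without NSM2, SM2, SM3, SF1 or SF2, and in the case of SM3 it was mir-211 with -0.38. In the interaction mir-204 and mir-211 were called and were higher in the female response, by 0.47 (standard error 0.15) and 0.53 (standard error 0.17) on the log2 scale, where 6.8% of all tested miRs were called. Both had an adjusted p of 0.420 by limma. Without NSM1 the value of mir-204 was 0.35 and without SM1 it was 0.33, and it was then not called. mir-211 was called without each library in turn, at 0.41 to 0.60, and 4 miRs were called without SF1.

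**Figure D4:**
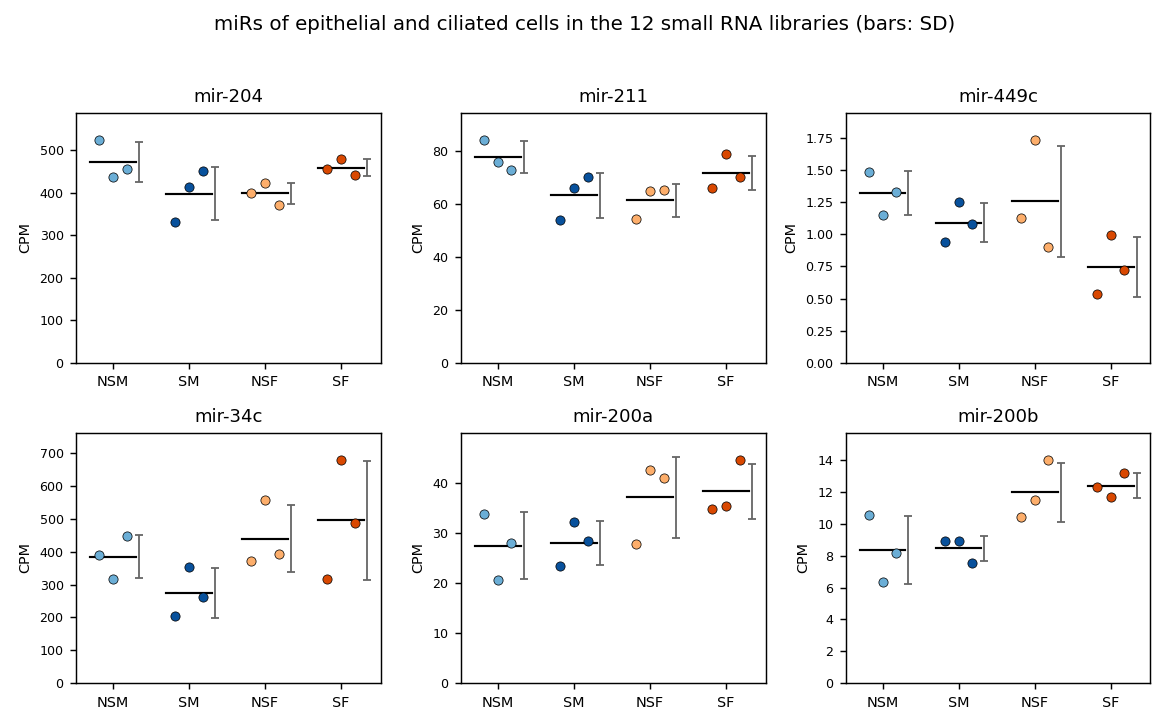
CPM of 6 miRs in the 12 small RNA libraries; points are the 3 libraries of a group in order of their number, lines are group means and gray bars are SDs. For mir-204 and mir-211 the means of NSM (472 and 77.6 CPM) and SF (459 and 71.7 CPM) lie above those of SM (398 and 63.3 CPM) and NSF (398 and 61.3 CPM).

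In stressed against unstressed females 1 of 11 miRs was called, where 4.8% of all tested miRs were called. mir-449c fell from 1.26 ± 0.433 to 0.749 ± 0.233 CPM on 5 to 18 reads a library (log2 fold change -0.77, adjusted p = 0.554, limma), and was not called without NSF2 (log2 fold change -0.48), SF1 (-0.58) or SF3 (-0.78). In unstressed females against unstressed males 2 of 11 were called, where 7.6% of all tested miRs were called. mir-200b was at 10.4, 11.5 and 14.0 CPM in females and at 10.6, 6.32 and 8.19 CPM in males (log2 fold change 0.51, adjusted p = 0.189, limma), and was not called without NSM2 (0.34) or NSF3 (0.40). mir-200a was at 37.1 ± 8.09 CPM in females and 27.4 ± 6.64 CPM in males (log2 fold change 0.44, adjusted p = 0.302, limma), and was not called without NSM2 (0.25), NSM3 (0.47), NSF2 (0.32), NSF3 (0.37) or SF1 (0.44). The count was 0 without NSM2 and 1 without NSF3 or SF1, and the 1 call without NSF3 was of a miR lower in females. Under the fold threshold, mir-211 (log2 fold change -0.34, adjusted p = 0.189, limma) and mir-204 (-0.24, adjusted p = 0.287, limma) were lower in unstressed females than in unstressed males.

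Of the other ciliary miRs, mir-34c was at 274 ± 75.9 CPM in stressed and 385 ± 65.0 CPM in unstressed males, and its highest library was SF2 with 681 CPM. mir-34b was also highest in SF2, with 110.0 CPM, and mir-449a was between 9.07 CPM in NSM1 and 14.6 CPM in SF3. mir-429 lay between 14.1 and 25.6 CPM, mir-200c between 1.42 and 3.33 CPM and mir-141 between 0.564 and 1.93 CPM.

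The levels of mir-204 and 3 other miRs were set beside the member index over the 12 pools. Since the index is made of the mRNA values on which the 9 genes were selected, these correlations are a description without a test, and the pools share their dissection with the index. For mir-204 Pearson's r was 0.68 and Spearman's rho 0.56. Its r was 0.52 without NSM1, 0.69 without NSM1 and SM2, the 2 pools farthest from the median of the index, and 0.65 with the group means taken out. With *Ttr* alone in place of the index r was 0.54, and with the index without *Ttr* it was 0.71. For mir-211 r was 0.52 and rho 0.41, and r was 0.19 without NSM1 and 0.26 without both pools. For mir-34c r was 0.22 and rho 0.31, and r was 0.40 without NSM1 and 0.54 without both pools. For mir-449a r was -0.36 and rho -0.05, and r was 0.23 without NSM1 and 0.17 without both pools.

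**Figure D5:**
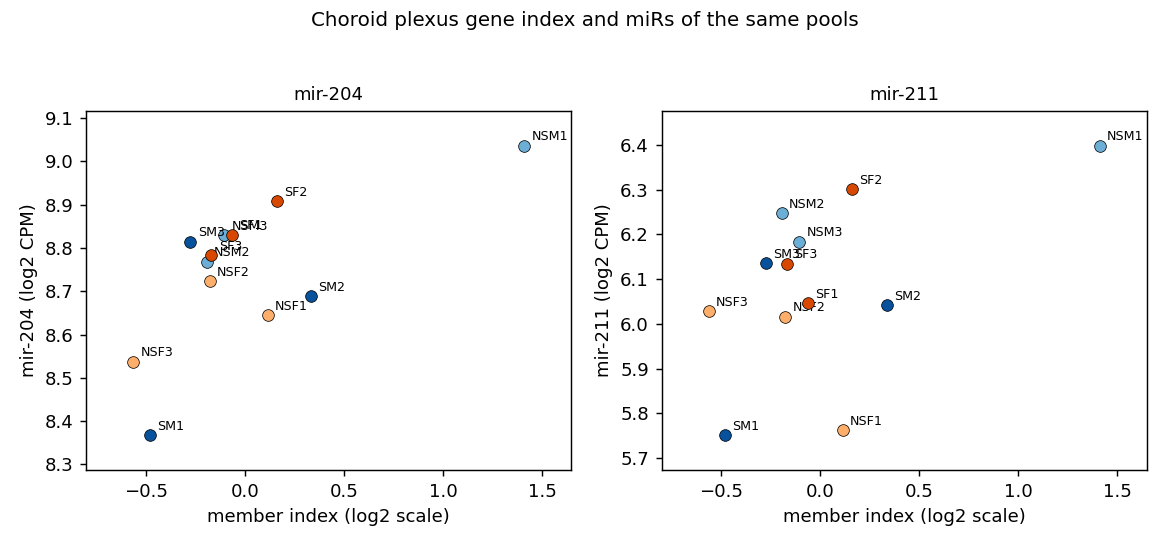
Member index of the 9 choroid plexus genes (mean log2 deviation, x) against log2 CPM of mir-204 (left) and mir-211 (right, y) in the 12 pools, colored by group and labeled by library. NSM1 lies alone at an index of 1.41 with the highest level of both miRs, and SM1 has the lowest level of both at an index of -0.48.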

How the data were processed

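The authors deposited raw read counts per gene (paired reads aligned to NCBIM37 with TopHat2 and counted with HTSeq) and raw counts per miR hairpin (trimmed reads, Bowtie to mm9, HTSeq), and per the labels each library is a pool. Versions and the strand setting are not given in the sources used here, and the mRNA kit does not mark strand. All 24 libraries were assigned from their labels. Counts were scaled by TMM factors (edgeR 4.0.16), passed through voom and fitted with limma 3.58.1 in R 4.3.3 with 1 mean per group over all 12 libraries of an assay. The study used voom and limma with stress and sex as factors, the same thresholds and, for mRNA, the same read filter, here applied to both assays. Features with over 5 reads in 80% or more of any group's libraries were kept, and were called where the unadjusted p was below 0.05 and the change reached 1.3-fold. P values were adjusted by the Benjamini-Hochberg method across every tested feature of an assay. Log2 CPM carries 0.5 added reads. DESeq2 1.42.0 and edgeR served as alternatives, and plots were drawn with matplotlib 3.10.9. Steps were tested on simulated data. Within groups all libraries differed in their counts, and p values measure the spread between pools.

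The members and all gene lists were chosen with earlier results of these data known. Named are all 9 members, up to 5 called genes with the lowest p per comparison and the 2 most abundant of each role in the list of other choroid plexus genes, the 12 genes most like the index, the most abundant gene of each other list and the tested miRs. Any other gene given with a value was named with its values seen, whether marked there or not. Among them are *Sostdc1*, *Ecrg4*, *Slc22a6*, *Cldn5*, *Mlf1*, *Foxj1* and *Rsph1*. Gene symbols and exon lengths were taken from the annotation of NCBIM37 (GENCODE M1), with 17795 of 18593 tested genes matched to a symbol.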

Additional observations from a re-analysis of the deposited data

Results flagged for a closer look

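The response to SCVS differed between the sexes, by the interaction test of limma with an unadjusted p below 0.05 and a 1.3-fold difference or more, for 4 of 32 other choroid plexus genes and 3 of 12 ependymal genes, where 4.42% of all tested genes were called, and for 2 of 11 miRs, where 6.8% of all tested miRs were. None of them had an adjusted p under 0.05 by limma. The female minus male response was 1.79 for *Prlr*, 1.75 for *Krt8*, 1.69 for *Krt18* and 0.91 for *Col8a2* on the log2 scale. It was 1.11 for *Mlf1* (adjusted p = 0.457), 0.66 for *Foxj1* (adjusted p = 0.507) and 0.51 for *Rsph1* (adjusted p = 0.472), which belong to motile cilia, and no ependymal gene was called without SM1, NSF3 or SF2. For mir-204 and mir-211, which share a seed, it was 0.47 and 0.53. In all 9 the male response was below 0 and the female response above it.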

How the results depend on the processing

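The log2 fold changes of the members moved by less than their within-group SD in 624 of 632 alternatives, and the exceptions were *Ttr* and *F5*, mostly without NSM1. This SD includes NSM1, and a change of sign within it was not counted as a move. The exceptions therefore leave out *Folr1* in males, from -0.83 to -0.09 without NSM1, and *Aqp1* in males, from -0.23 to 0.27. *Ttr* in unstressed females against unstressed males was at -2.64, at -0.65 without NSM1, at -4.71 with edgeR and at -4.69 with DESeq2. For males, calls among the 32 other choroid plexus genes numbered 4 with DESeq2, 4 with library size only and 4 with at least 10 reads in every library (22 genes tested), and 4 to 11 without single libraries. In females they numbered 0 to 5 without single libraries. In the interaction they numbered 2 with DESeq2, 2 with at least 10 reads in every library and 2 to 9 without single libraries. In unstressed females against males they numbered 1 with DESeq2 and 0 to 4 without single libraries. No gene of the list had an adjusted p under 0.05 with the fold threshold in any of the 4 comparisons (0 calls in each) by limma with TMM scaling. The adjusted p of *Krt8* in males was 0.0449 with library size only and 0.0429 with the replicate block, and that of *Prlr* with DESeq2 was 0.00277 in males and 0.0145 in the interaction. Called miRs in males numbered 0 to 1 without single libraries. In females they numbered 0 with DESeq2, 0 with library size only and 0 to 1 without single libraries. In the interaction they numbered 1 with quantile normalization and 1 to 4 without single libraries. Between unstressed sexes they numbered 1 with library size only and 0 to 3 without single libraries.

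The r of mir-204 with the index was 0.54 with *Ttr* alone, 0.56 with the 3 members of at least 50 reads in every library (chosen after seeing the data, as were the index without *Ttr*, the ependymal counts and the list medians without NSM1), and 0.52 to 0.72 without single pools. The cause of these changes was not tested.

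Same-numbered libraries of a sex correlated in their deviations by over 0.1 in 3 of 6 pairs for mRNA and 4 of 6 for small RNA, so not in every pair, and the numbers were not taken as pairs. As a hint of pairing from the data, not the design, 8 of 12 libraries of each assay correlated best with their own number. With the replicate block, calls among the 32 genes numbered 5 in males, 1 in females, 4 in the interaction and 3 between unstressed sexes, and miRs 1, 1, 3 and 2. *Folr1*, *Slc4a5*, *Aqp1*, *Krt8*, *Krt18* and mir-449c rest on under 40 reads in every library.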

Other observations

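SF2 was the highest library for 9 of 12 ependymal genes, 11 of 32 other choroid plexus genes and 7 of 13 oligodendrocyte genes, for none of the 9 members, and for 7.30% of all tested genes. *Sostdc1*, a secreted antagonist of BMP signaling, was at 0.998 CPM there, and *Ecrg4*, a secreted peptide precursor, was at 0.919 CPM. Among genes with at least 20 reads in SF2, those that exceeded the next library the most were *Met* (1.47 against 0.721 CPM), *1700001C02Rik* (0.822 against 0.429 CPM) and *Calml4* (0.802 against 0.445 CPM), named with their values seen. mir-34b and mir-34c were highest in this pool as well. The index of the 9 members was 0.16 in SF2, next after NSM1 and SM2, and *Ttr* was at 0.665 CPM.

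In NSM1, beside *Ttr*, *Aqp1*, *Folr1* and *F5*, the genes that exceeded the next library the most and carry a symbol were *Mfrp* (0.812 against 0.533 CPM), a frizzled-related membrane protein of the retinal pigment epithelium, the stress-induced factor *Atf3* (1.38 against 0.914 CPM), *Gm7936* (0.371 against 0.255 CPM), the adhesion molecule *Icam1* (2.12 against 1.47 CPM) and *Tmem72* (0.424 against 0.297 CPM), likewise named with their values seen.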
